A study of Mus musculus with 20 samples.

Results

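The 10 imprinted genes, H19, Igf2, Peg3, Mest, Grb10, Plagl1, Phlda2, Igf2r, Peg10 and Sgce, were followed in RNA-seq libraries of mouse jejunal epithelium with and without the histone demethylase genes Kdm6a and Kdm6b. Members were chosen by gene symbol, low ones included: 10 of 17607 gene names, of which all 10 had values at the acute time and 7 in the prolonged groups. H19, Peg10 and Sgce were not analysed here for the prolonged time. All 20 libraries came from intestinal epithelial cells of the jejunum of female mice. The acute groups, taken 7 days after ablation, held 5 libraries of genotype Control/WT and 7 of genotype Kdm6a/Kdm6b knockout (DKO), and the prolonged groups, taken 5 months after it, held 3 and 5. What drives the ablation, the age of the mice and any allele that both genotypes carry are not given in the sources used here.

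An imprinted gene is read from only 1 parental chromosome, because DNA methylation laid down in egg or sperm marks the copies differently. Many such genes set fetal growth, in part through the insulin-like growth factor IGF2, the receptor IGF2R that carries it to the lysosome for destruction, and GRB10, an adaptor that dampens insulin and IGF receptor signalling; most are turned down after birth. KDM6A and KDM6B remove a repressive methyl mark from histone H3, and in some imprinted clusters that mark helps to silence genes near the methylated control region. The values below are reads per gene scaled to an equal library total (CPM) summed over both parental copies, so they do not show which copy was read.

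Kdm6a lay between 57.7 and 72.6 CPM in acute controls against 38.5 to 45.7 CPM in acute DKO libraries, and between 70.8 and 82.6 against 44.4 to 55.3 CPM at the prolonged time. Kdm6b lay between 91.2 and 109 against 59.8 to 81.1 CPM, and between 99.5 and 107 against 71.4 to 82.9 CPM. Neither gene's groups overlapped at either time, as the genotype labels have it, although reads from exons left in place are counted too. Epithelial marker genes (11) summed to between 12026 and 13690 CPM in every library. Genes of stroma (13 markers) summed to 56.0 to 258 CPM in acute controls, 44.1 to 865 CPM in acute DKO libraries, 18.7 to 22.6 CPM in prolonged controls and 21.3 to 36.9 CPM in prolonged DKO libraries. Immune cell genes (11) summed to between 113 and 665 CPM over all libraries, and the markers of smooth muscle, endothelium, enteric nerve and pancreatic acinar cells to no more than 11.5 CPM for any list. The enteric nerve and glia markers summed to 4.99 to 5.61 CPM in acute controls and 2.70 to 3.79 CPM in acute DKO libraries, without overlap, and to 3.43 to 5.35 and 2.95 to 3.83 CPM at the prolonged time. Among them Ret was called lower at the acute time (-0.58 ± 0.11, limma adjusted p = 0.00293). Acute DKO 3 and DKO 4 stood apart on the first principal component of their time (34.0 and 45.9, the other 10 libraries -28.0 to 12.1), and DKO 3 held the highest stromal sum. The acute labels give each animal a number, and neighbouring numbers form 5 runs: control 2, control 3 and DKO 5, control 4 and DKO 6, control 5 alone, control 1 with DKO 1, DKO 2 and DKO 7, and DKO 3 with DKO 4. The first component was -28.0 to -10.4 in the first of these, -20.8 to -0.36 in the second and -8.08 to 12.1 in the fourth. In each run with both genotypes, every DKO library scored above every control. It was 34.0 to 45.9 in the last run, which holds no control, so that run and genotype cannot be told apart for DKO 3 and 4. No source used here says whether a run marks a litter or a batch. In bulk RNA such as this, fewer cells of a type and less RNA per cell cannot be told apart.

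Per kilobase of exon, Igf2r was the highest of the 10 genes in control libraries, at 14.3 ± 0.890 CPM per kb in acute (SD, n = 5) and 21.9 ± 0.907 CPM per kb in prolonged controls (n = 3). Phlda2 and Igf2 came next, at 0.472 ± 0.148 and 0.375 ± 0.0933 CPM per kb in acute controls. The library values of this pair overlapped. Peg3, Grb10, H19, Mest, Plagl1 and Sgce followed, from 0.186 ± 0.0570 down to 0.0177 ± 0.0108 CPM per kb, with library values that overlapped between neighbours in that order. Peg10 was the lowest, at 0.00627 ± 0.00791 CPM per kb. Igf2r was thus measured with 1634 to 4927 reads in a library, while the other members had between 0 and 159 reads.

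**Figure D1:**
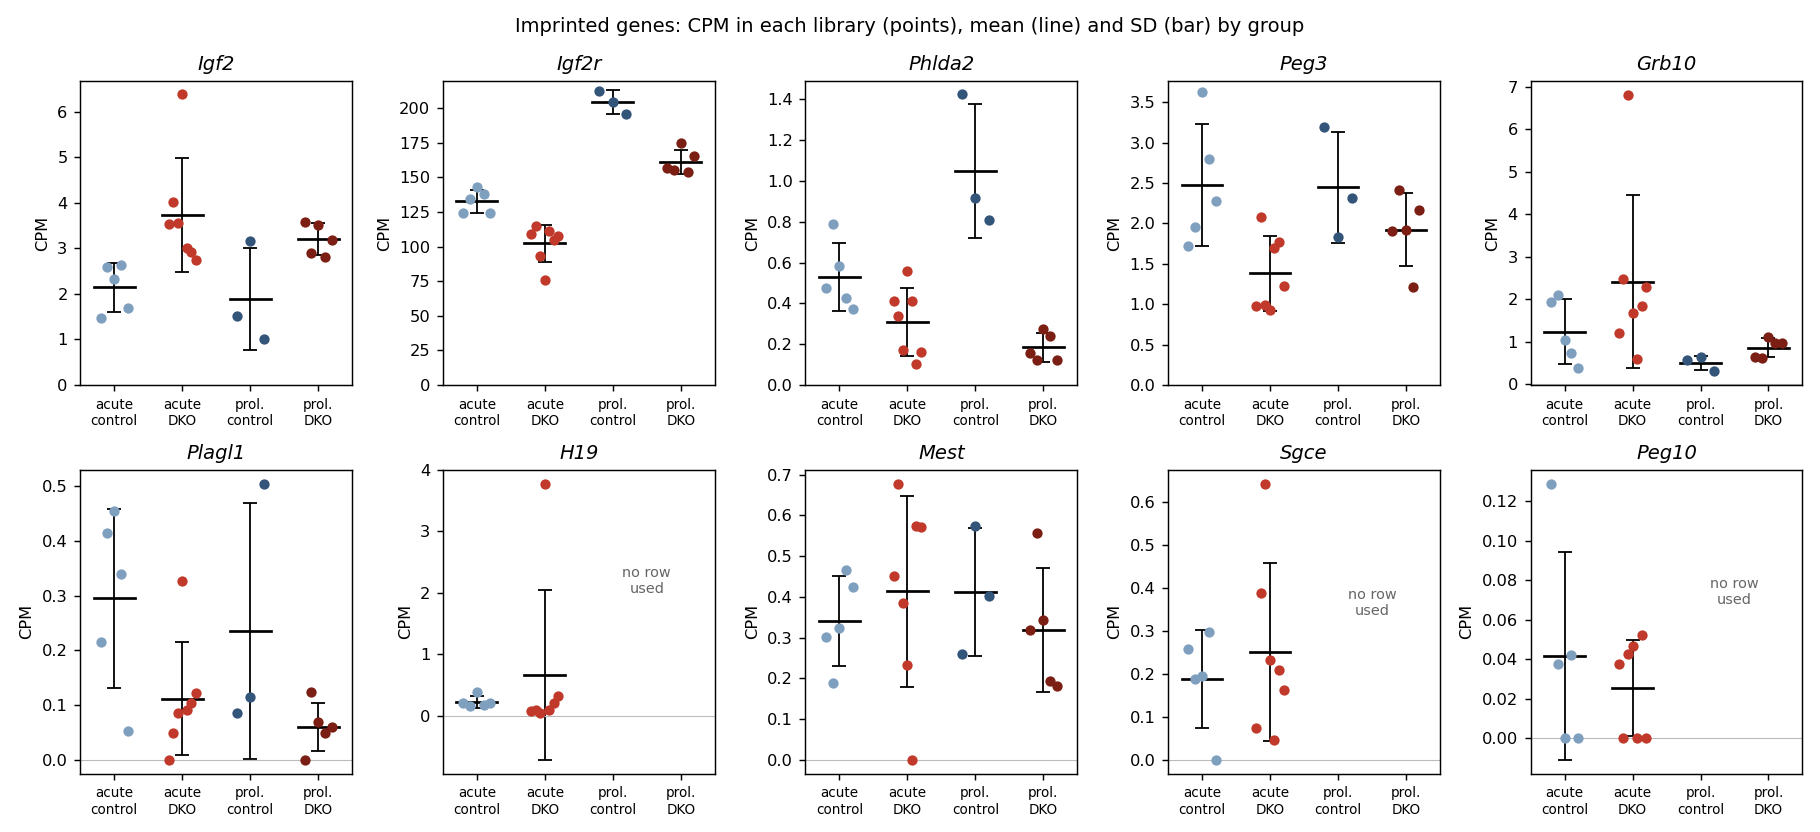
Each panel plots CPM (vertical axis, starting at or below 0) of 1 imprinted gene in every library, by group, with the group mean as a line and the SD as a bar. All DKO libraries lay below all controls of their time for Igf2r, which held for 6.55% of acute and 11.7% of prolonged tested genes. Phlda2, tested only through its controls, was below every control in all 5 prolonged DKO libraries. H19, Igf2 and Grb10 each had 1 acute DKO library far above the others, at 3.78, 6.39 and 6.82 CPM.

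The test was limma-trend on log2(CPM + 1) for genes with 0.5 CPM or more in 5 acute libraries, or in 3 prolonged ones, and genes were called at an adjusted p under 0.05 over all tested genes. Igf2, Peg3, Grb10 and Igf2r passed this filter at both times, and Phlda2 at the prolonged time only. At the acute time 3 of the 4 tested members were called, Igf2 higher and Igf2r and Peg3 lower, where 15.0% of 13601 genes were called (2.90% higher, 12.1% lower). At the prolonged time Igf2r and Phlda2 were called, both lower, where 14.7% of 13316 genes were called (5.74% higher, 8.94% lower). Phlda2 passed the filter there only through its controls, so it had to differ, and nothing is read from that call or from the number of members called at that time. Log2 fold changes compare DKO with control libraries on log2(CPM + 1), with their standard error, and this scale understates the change of low genes. The median over all tested genes was -0.07 in acute and 0.00 in prolonged libraries, and scaling the acute CPM by TMM factors moved the first to 0.01.

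**Figure D2:**
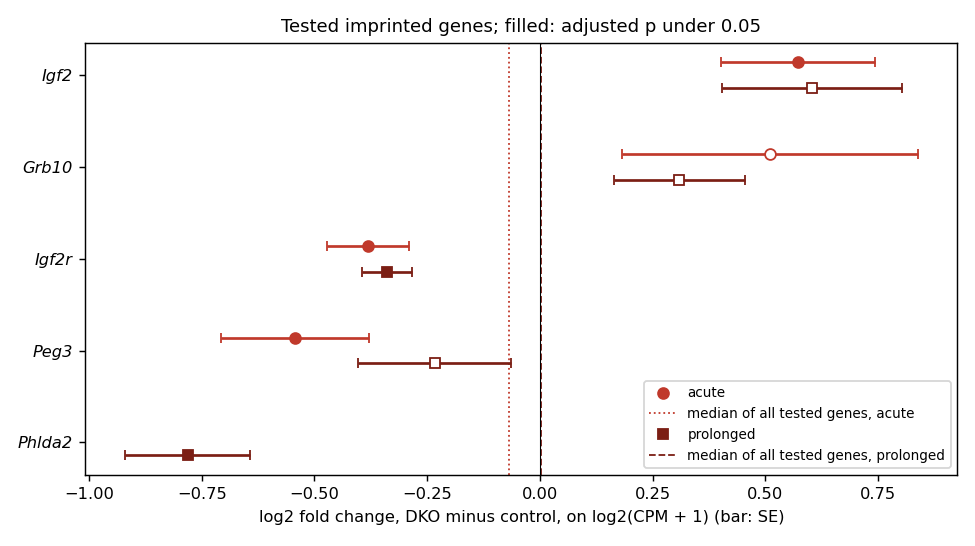
Log2 fold change, DKO minus control, on log2(CPM + 1) (horizontal axis, bar: standard error) of the 5 tested imprinted genes at the acute (circles) and prolonged time (squares), filled where the adjusted p was under 0.05. Igf2r had nearly equal values at both times (-0.38 and -0.34), and Igf2 lay above the median of all genes (dotted and dashed lines) at both. Prolonged Phlda2 had the lowest value, -0.78. Only its controls carried it past the filter, so nothing is read from its filled point.

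The receptor came first in abundance. Igf2r, the cation-independent mannose 6-phosphate receptor that sorts lysosomal enzymes and removes IGF2, read 124, 134, 143, 138 and 124 CPM in acute controls 1 to 5. Acute DKO libraries ran from 76.2 through a median of 108 to 115 CPM. No DKO library reached the lowest control, which was so for 6.55% of all tested genes in this direction. By limma, Igf2r fell by 0.38 ± 0.09 at the acute time (adjusted p = 0.0131; 7 of 7 libraries). At 5 months after ablation it read 213, 205 and 196 CPM in controls and 157, 155, 175, 154 and 166 CPM in DKO libraries. The groups again did not overlap, which held for 11.7% of genes in this direction, and Igf2r changed by -0.34 ± 0.06 (limma adjusted p = 0.00193; 5 of 5 libraries). Counting error was small beside these differences: the 95% exact Poisson interval of prolonged control 1 ran from 207 to 219 CPM and that of DKO 4 from 149 to 160 CPM. The 2 lowest acute values, 76.2 and 92.9 CPM, belonged to DKO 4 and DKO 3, and without both Igf2r was still called (-0.27, limma adjusted p = 0.00612). Within the 3 runs of animal numbers that held both genotypes it was lower in DKO libraries by -0.31, -0.39 and -0.17, and with the run as a block it was called (-0.28, limma adjusted p = 0.0396). The authors' deposited table gives Igf2r log2 fold changes of -0.28 (adjusted p = 0.00503) and -0.33 (adjusted p = 8.71e-07). Airn, the antisense RNA that silences Igf2r on the paternal copy, overlaps it, and no source used here says if reads were counted by strand, so reads of the overlap cannot be assigned. Airn itself was not called (-0.21 ± 0.16 and -0.27 ± 0.19, limma adjusted p = 0.421 and 0.391).

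The Igf2r promoter is shown because this was the member with the most reads and was lower at both times. It holds 34 CpG, the dinucleotide that carries DNA methylation, and 7.73% of the 32851 promoter windows in RefSeq's table (GRCm38.p6, 250 bases before to 50 after a start; median 7 CpG) hold as many. The window is chr17:12769657-12769956, minus strand, with each CpG in capitals, written 5′ to 3′. The libraries were processed on build mm9, so no position of theirs is compared with it.
Igf2r: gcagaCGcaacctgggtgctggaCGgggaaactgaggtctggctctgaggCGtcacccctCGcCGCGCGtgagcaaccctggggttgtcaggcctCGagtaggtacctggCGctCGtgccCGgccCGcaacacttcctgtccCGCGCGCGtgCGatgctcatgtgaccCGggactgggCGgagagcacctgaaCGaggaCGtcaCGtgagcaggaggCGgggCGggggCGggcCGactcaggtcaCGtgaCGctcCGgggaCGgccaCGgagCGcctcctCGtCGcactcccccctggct

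The ligand moved the other way. Igf2, a growth factor of the fetus, read 1.46, 2.60, 2.33, 2.63 and 1.70 CPM in acute controls 1 to 5. Its acute DKO values ran from 2.73 through a median of 3.54 to 6.39 CPM, the highest in DKO 4. Every DKO library lay above every control, which held for 1.24% of tested genes in this direction. Igf2 rose by 0.57 ± 0.17 at the acute time (limma adjusted p = 0.0380). In the authors' deposited table Igf2 has a log2 fold change of 0.92 (adjusted p = 0.00595) at the acute time. At the prolonged time theirs is 0.72 (adjusted p = 0.113). In the prolonged groups Igf2 read 1.51, 3.15 and 1.01 CPM in controls and 3.58, 2.91, 3.51, 2.81 and 3.19 CPM in DKO libraries. Control 2 lay within the DKO range and 3 of 5 DKO libraries lay above all controls. The fold change was 0.60 ± 0.20 but did not pass (limma adjusted p = 0.0644). In 16 of 17 alternatives prolonged Igf2 stayed uncalled, with log2 fold changes from 0.26. It passed only without control 2, the control within the DKO range (0.90, limma adjusted p = 0.00393).

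The acute call of Igf2 was near its threshold. It was lost without the filter on low values (limma adjusted p = 0.0514). It was also lost without acute control 1 (limma adjusted p = 0.104), control 3 (0.0700), control 4 (0.0503) or control 5 (0.0765), and without DKO 1 (0.0631), DKO 2 (0.0635) or DKO 3 (0.0613), with log2 fold changes from 0.46 to 0.63 over all 12 libraries left out. Without DKO 3 and DKO 4 together it was 0.44 (limma adjusted p = 0.0618). Within the 3 runs of animal numbers with both genotypes the difference was 0.21, 0.11 and 0.84, and with the run as a block 0.43 (limma adjusted p = 0.197). DKO 4, with the highest Igf2, had the second-highest stromal sum of the acute libraries (310 CPM). DKO 5 and DKO 1, with stromal sums of 44.1 and 59.5 CPM, read 3.02 and 3.54 CPM of Igf2, above the highest control at 2.63 CPM. In prolonged DKO libraries, with stromal sums of 21.3 to 36.9 CPM, Igf2 was 2.81 to 3.58 CPM. Of the 5 stromal markers tested at that time 1 was called, where 5.74% of all tested genes rose. This was Pdgfrb, higher in DKO libraries (0.60 ± 0.18, limma adjusted p = 0.0415), and the median over the 5 was 0.27. The part of stromal RNA in the Igf2 values was not tested beyond these levels. The gene overlaps an antisense transcript, Igf2os, from which unstranded reads could not be told apart.

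GRB10 acts downstream of the same receptors. Grb10 read 1.94, 2.11, 1.04, 0.721 and 0.372 CPM in acute controls and from 0.594 through a median of 1.83 to 6.82 CPM in acute DKO libraries. The groups overlapped, with 3 of 7 DKO libraries above all controls. Its log2 fold change of 0.51 ± 0.33 did not pass (limma adjusted p = 0.335). DKO 3 was the highest of its group in Grb10 and in the stromal sum (6.82 and 865 CPM) and DKO 5 the lowest in both (0.594 and 44.1 CPM). Between them, DKO 1, DKO 7, DKO 2, DKO 6 and DKO 4, in order of stromal sum (59.5, 219, 275, 300.04 and 310 CPM), read 1.20, 2.28, 2.47, 1.83 and 1.68 CPM of Grb10, so DKO 4 and DKO 6 lay below libraries with less stromal RNA. Among controls, control 2 was the highest in both (2.11 and 258 CPM) and control 5 the lowest in both (0.372 and 56.0 CPM). The part of stromal RNA in the Grb10 values was not tested beyond these levels. Without DKO 3 the log2 fold change was 0.28 (limma adjusted p = 0.535). Within the runs of animal numbers the Grb10 difference was -0.66, 0.72 and -0.0036, and with the run as a block its sign turned (-0.043, limma adjusted p = 0.955). Prolonged values of Grb10 were 0.561, 0.631 and 0.303 CPM in controls and 0.637, 0.618, 1.10, 0.970 and 0.962 CPM in DKO libraries, 4 of them above all controls. That difference of 0.31 ± 0.15 did not pass either (limma adjusted p = 0.188).

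**Figure D3:**
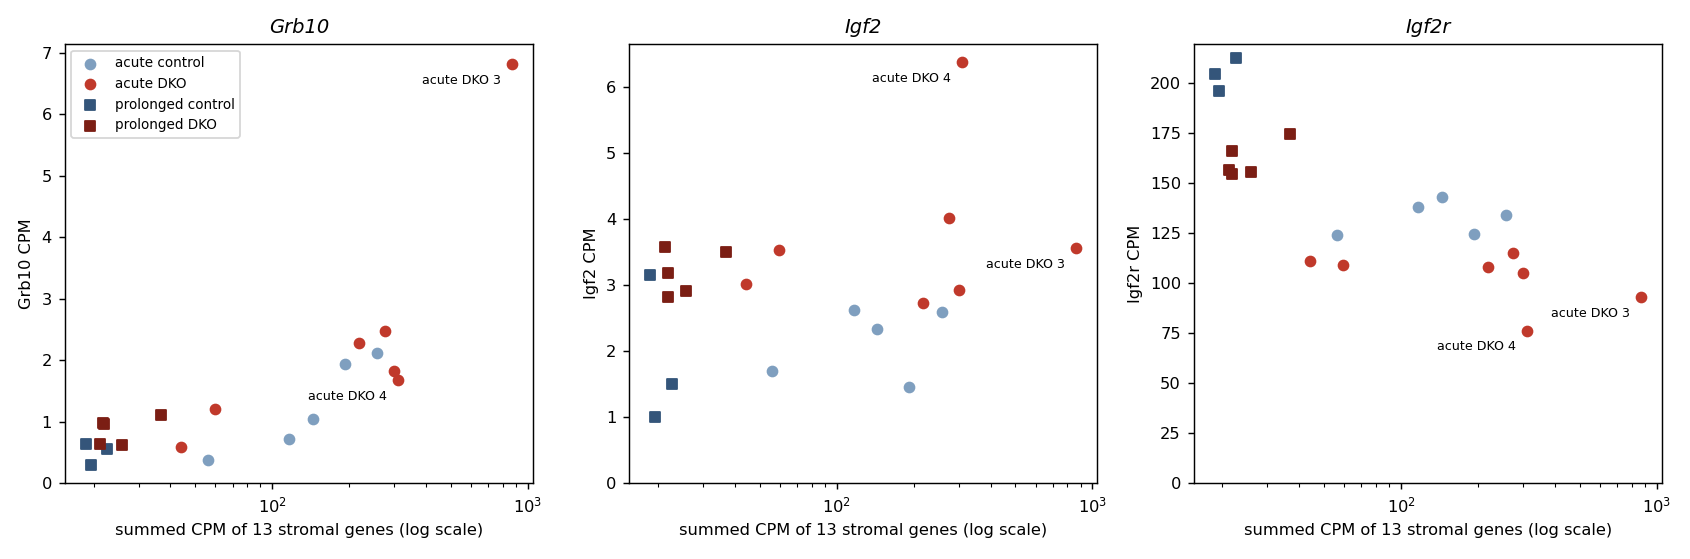
CPM of Grb10, Igf2 and Igf2r (vertical axes from 0) against the summed CPM of 13 stromal genes (horizontal, log scale) in each library, circles for the acute and squares for the prolonged time. Grb10 was highest where the stromal sum was highest (865 CPM, acute DKO 3), while Igf2 was 2.81 to 3.58 CPM in prolonged DKO libraries, whose stromal sums were at most 36.9 CPM. Among the stromal genes, Pdgfrb was called higher in prolonged DKO libraries.

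Phlda2 encodes a small pleckstrin-homology protein that restrains growth of the placenta and is read from the maternal copy. At the prolonged time it read 1.42, 0.917 and 0.807 CPM in controls and 0.159, 0.124, 0.275, 0.243 and 0.120 CPM in DKO libraries. These were 33, 16 and 8 reads against 2, 2, 4, 5 and 2 reads. The groups did not overlap, which held for 11.7% of tested genes in this direction. The log2 fold change on log2(CPM + 1) was -0.78 ± 0.14. Both are given as a description, since only the controls carried Phlda2 past the filter. Over all 16195 genes, without the filter, limma gave an adjusted p = 0.000775. On the reads themselves, also without the filter, edgeR's quasi-likelihood test gave a log2 fold change of -2.49 (adjusted p = 0.00141), and the authors' deposited table gives -2.51 (adjusted p = 0.000524). With 2 to 5 reads in a DKO library the size of the fall is poorly fixed: the 95% exact Poisson interval of control 3 (0.348 to 1.59 CPM) overlapped that of DKO 3 (0.0749 to 0.704 CPM).

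At the acute time Phlda2 read 0.473, 0.791, 0.583, 0.424 and 0.372 CPM in controls and between 0.105 and 0.559 CPM, with a median of 0.339 CPM, in DKO libraries. The groups overlapped, with 4 of 7 DKO libraries below all controls. The difference in mean log2(CPM + 1) was -0.23 (two-sided exact permutation p = 0.0492 over 792 splits, unadjusted). The limma fit over all 17294 genes, without the filter, gave an adjusted p = 0.158. For acute Phlda2 the authors' deposited table gives a log2 fold change of -0.66 (adjusted p = 0.385). Leaving out DKO 6, the lowest library, or control 2, the highest, gave exact permutation p-values of 0.0887 and 0.130. Among single libraries left out, the p stayed under 0.05 only without control 5 or DKO 4, and over all 16 alternatives it did so in 4. Whether the change of Phlda2 differed between times was not tested.

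The Phlda2 promoter is shown as that of the member with the lowest log2 fold change. Only its controls carried it past the filter, so nothing is read from that rank. It holds 26 CpG, a number reached by 16.9% of RefSeq promoter windows. The window is chr7:143502475-143502774 of GRCm38.p6, minus strand, with CpG in capitals.
Phlda2: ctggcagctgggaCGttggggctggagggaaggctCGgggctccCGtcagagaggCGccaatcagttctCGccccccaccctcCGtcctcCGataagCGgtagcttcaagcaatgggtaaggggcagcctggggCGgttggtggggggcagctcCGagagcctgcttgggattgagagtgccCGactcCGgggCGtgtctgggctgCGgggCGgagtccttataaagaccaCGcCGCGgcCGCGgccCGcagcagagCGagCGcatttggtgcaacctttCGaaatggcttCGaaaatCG

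Peg3 encodes a large zinc-finger protein read from the paternal copy. It read 1.72, 1.96, 3.63, 2.80 and 2.28 CPM in acute controls and from 0.932 through a median of 1.22 to 2.08 CPM in acute DKO libraries. The groups overlapped, with 5 of 7 DKO libraries below all controls. Peg3 fell by 0.54 ± 0.16 at the acute time (limma adjusted p = 0.0403), and the authors' deposited table gives -0.75 (adjusted p = 0.0248). The summed enteric nerve and glia markers were lower in the same libraries (2.70 to 3.79 CPM against 4.99 to 5.61 CPM), and their part in the Peg3 values was not tested. This call also lay near the threshold. It was lost in limma without control 3 (adjusted p = 0.120), control 4 (0.101), control 5 (0.0566), DKO 1 (0.0800), DKO 3 (0.0777), DKO 4 (0.0642) or DKO 7 (0.0591), and with edgeR's quasi-likelihood test (adjusted p = 0.0548). Without DKO 3 and DKO 4 together Peg3 was at -0.44 (limma adjusted p = 0.116). Within the runs of animal numbers it differed by -0.46, -0.45 and -0.19, and with the run as a block by -0.35 (limma adjusted p = 0.272). Prolonged values of Peg3 were 3.19, 1.83 and 2.32 CPM in controls and 1.91, 2.41, 1.93, 1.21 and 2.16 CPM in DKO libraries. Only DKO 4 lay below all controls, and the change of -0.23 ± 0.17 did not pass (limma adjusted p = 0.413). For prolonged Peg3 the authors' deposited table gives -0.36 (adjusted p = 0.507).

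The Peg3 promoter had fewer CpG than those of Igf2r and Phlda2, at 13, a number reached by 37.9% of RefSeq windows, and is shown for that contrast. The window is chr7:6730370-6730669 of GRCm38.p6, minus strand, with CpG in capitals.
Peg3: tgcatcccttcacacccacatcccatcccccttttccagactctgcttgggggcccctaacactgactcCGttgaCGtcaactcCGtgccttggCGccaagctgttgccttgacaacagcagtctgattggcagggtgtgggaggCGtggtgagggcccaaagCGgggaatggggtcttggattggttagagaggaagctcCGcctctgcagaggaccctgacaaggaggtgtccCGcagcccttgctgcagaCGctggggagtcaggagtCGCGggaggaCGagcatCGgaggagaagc

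Plagl1, a zinc-finger transcription factor, was near the limit of detection. It read 0.215, 0.414, 0.454, 0.339 and 0.0531 CPM in acute controls (1 to 11 reads) and between 0 and 0.326 CPM in acute DKO libraries (0 to 7 reads). In DKO 1 it had 0 reads, which allows up to 0.113 CPM at 3 reads. The difference in mean log2(CPM + 1) was -0.22 (two-sided exact permutation p = 0.0455, unadjusted), and 2 of 7 DKO libraries lay below all controls. Over all genes without the filter Plagl1 did not pass (limma adjusted p = 0.130; edgeR 0.242). Without acute control 3, its highest library, the exact permutation p was 0.106. Among single libraries left out, the p stayed under 0.05 only without control 5 or DKO 4, and over all 16 alternatives it did so in 5. Prolonged libraries of Plagl1 had 2, 2 and 5 reads in controls and 0, 2, 1, 1 and 1 reads in DKO libraries (exact permutation p = 0.0536, where 56 splits allow no less than 0.0179). Of 11 alternatives, 1 gave a p under 0.05. That was without DKO 2, which lay within the control range (exact permutation p = 0.0286, the least that the remaining splits allow).

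H19, the maternally read RNA next to Igf2, had 4 to 6 reads in each acute control (0.151 to 0.389 CPM). The other 6 acute DKO libraries had 1 to 8 reads, whereas DKO 4 had 81 (3.78 CPM). The H19 mean difference of 0.19 on the log2 scale rested on DKO 4 (exact permutation p = 0.946), since without that library it was -0.11 (exact permutation p = 0.188). The authors' deposited table gives H19 a log2 fold change of -0.57 (adjusted p = 0.620). DKO 4 was also the highest acute DKO library in Igf2 (6.39 CPM) and Plagl1 (0.326 CPM) and the lowest in Igf2r (76.2 CPM) and Peg3 (0.932 CPM).

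Mest, an alpha/beta-hydrolase gene read from the paternal copy, lay between 0.188 and 0.466 CPM in acute controls and between 0 and 0.678 CPM in acute DKO libraries. Its difference was 0.06 on the log2 scale (exact permutation p = 0.646). In DKO 5 no read fell in Mest, which allows up to 0.137 CPM at 3 reads. Prolonged values were 0.259 to 0.573 CPM in controls and 0.180 to 0.556 CPM in DKO libraries (exact permutation p = 0.429). Sgce, which encodes epsilon-sarcoglycan, had 0 to 7 reads in acute controls and 1 to 15 in acute DKO libraries (exact permutation p = 0.605). Peg10, derived from a retrotransposon and next to Sgce, had at most 3 reads in any acute library (exact permutation p = 0.545). No difference was detectable at this depth for Mest, Sgce or Peg10.

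The effect of genotype did not differ detectably between times for any of the 4 members tested at both. Prolonged minus acute, the difference was 0.31 ± 0.25 for Peg3, 0.03 ± 0.28 for Igf2, -0.20 ± 0.44 for Grb10 and 0.04 ± 0.12 for Igf2r (limma adjusted p = 0.859 to 0.982). Over all 13088 genes limma called 0 (0%), with 608 at an unadjusted p under 0.05, and DESeq2 called 8. These standard errors are of the order of the genotype effects of Peg3, Igf2 and Grb10 themselves.

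Genes beside the members were read in the order RefSeq gives for GRCm38.p6. In the stretch from H19 and Igf2 to Phlda2 and Dhcr7, 15 listed genes, 11 were tested at the acute time, of which Igf2 rose and 4 others fell, where 2.90% of all tested genes rose and 12.1% fell. Those 4 were Tssc4 (-0.30 ± 0.09), Cd81, a tetraspanin gene (-0.26 ± 0.08), Nap1l4 (-0.21 ± 0.06) and Dhcr7, a sterol reductase gene (-0.37 ± 0.12), with limma adjusted p from 0.0400 to 0.0452. At the prolonged time Dhcr7 (-0.39 ± 0.09, limma adjusted p = 0.0129) was lower, where 8.94% of all genes fell, as was Phlda2, which only its controls carried past the filter. Ascl2, a transcription factor gene of intestinal stem cells between Igf2 and Phlda2, did not pass at either time (-0.61 ± 0.21 and -0.44 ± 0.15, limma adjusted p = 0.0720 and 0.0674), nor did Cdkn1c, a cell cycle inhibitor gene (-0.36 ± 0.17 and -0.21 ± 0.12), or Kcnq1, a potassium channel gene (-0.38 ± 0.15 and -0.02 ± 0.10). The acute calls of Tssc4, Cd81, Nap1l4 and Dhcr7 were lost in 14 to 17 of 23 alternatives each.

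Around Sgce and Peg10, 5 of 7 listed genes were tested at each time, and 1 rose and 1 fell at each. Over all tested genes 2.90% rose and 12.1% fell at the acute time, and 5.74% and 8.94% at the prolonged time. Casd1, Ppp1r9a and Pon2 were not called at either time. Tfpi2, a protease inhibitor gene, fell from 2.47 ± 0.673 to 0.778 ± 0.409 CPM at the acute time, and changed by a similar amount at the prolonged time (-0.98 ± 0.18 and -0.87 ± 0.12, limma adjusted p = 0.00261 and 0.000757). Pon3, a lactonase gene in the same stretch, rose at both times (0.34 ± 0.07 and 0.31 ± 0.06, limma adjusted p = 0.00596 and 0.00608). Next to Grb10, Cobl, which encodes an actin nucleator, rose by 0.33 ± 0.09 and 0.27 ± 0.06 (limma adjusted p = 0.0261 and 0.0142), and Ddc fell at the prolonged time (-0.34 ± 0.07, limma adjusted p = 0.00995). Slc22a3, an organic cation transporter gene in the stretch of Igf2r but not directly beside it, rose at the prolonged time from 4.78 ± 0.782 to 8.98 ± 2.34 CPM (0.77 ± 0.17, limma adjusted p = 0.0118). It was at 0.61 ± 0.24 at the acute time (limma adjusted p = 0.114).

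**Figure D4:**
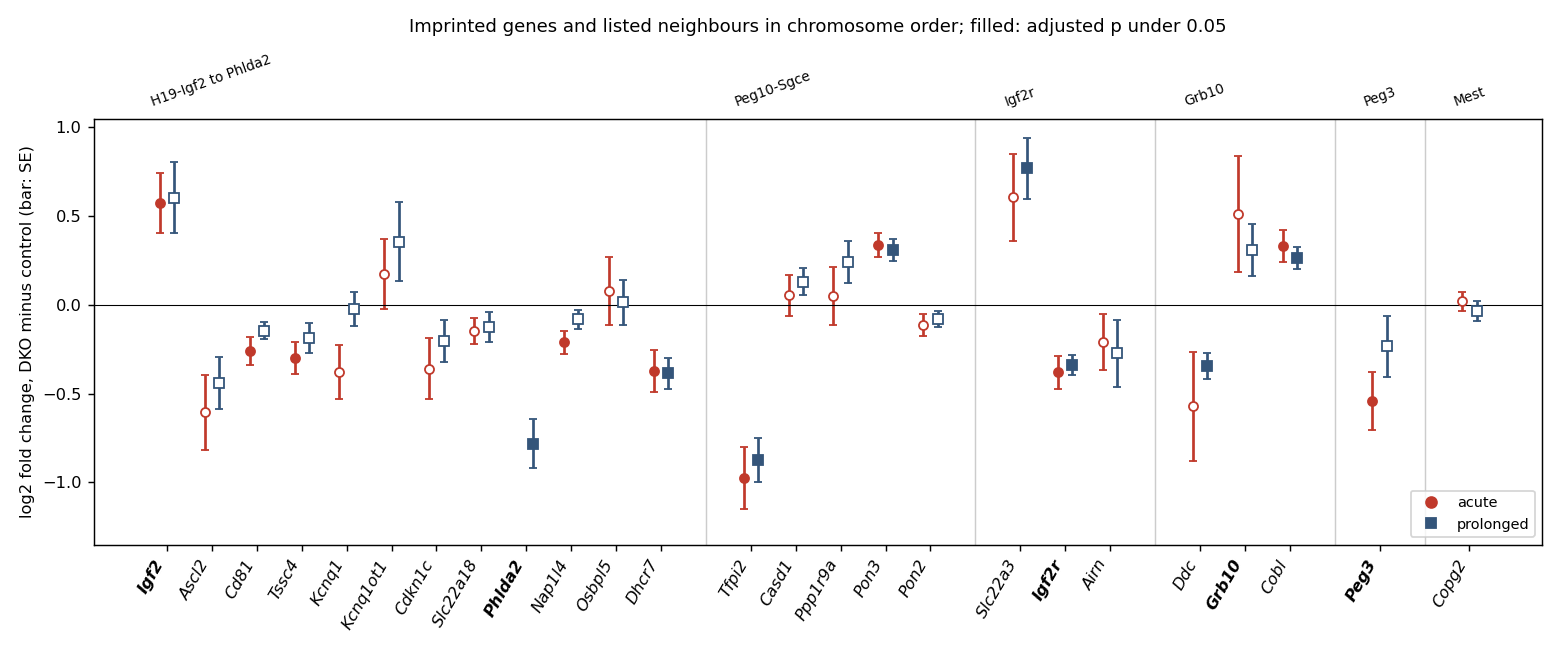
Log2 fold change on log2(CPM + 1), DKO minus control (vertical axis, bar: standard error), of imprinted genes (bold) and listed neighbours in their chromosome order, in 6 stretches, circles for acute and squares for prolonged, filled where the adjusted p was under 0.05. Tfpi2 was the lowest at both times (-0.98 and -0.87), and Slc22a3 (0.77, prolonged) the highest.

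Among 67 further genes listed as imprinted, many of them in placenta or brain only, 40 were tested at the acute time, of which 3 rose and 6 fell (22.5%, against 15.0% of all genes) with a median of -0.03. With TMM-scaled CPM 4 of them were called, without acute control 1 or control 4 only 2, without control 2 or control 3 only 3, and without DKO 1 or DKO 3 only 5. At the prolonged time 39 were tested, 4 rose and 3 fell (17.9%, against 14.7%), with a median of -0.02. Beside the neighbours above, Blcap rose (0.26 ± 0.07) and H13 fell (-0.21 ± 0.06) at the acute time, and Gnas, the stimulatory G protein gene, rose from 493 ± 3.63 to 564 ± 12.4 CPM at the prolonged time (0.19 ± 0.05, limma adjusted p = 0.0159). One listed gene, Dcn, is also among the stromal markers.

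The IGF and insulin pathway list (26 genes) had 0 higher and 2 lower of 22 tested at the acute time (9.09%, against 15.0% of all genes), and 1 higher and 2 lower of 18 at the prolonged time (16.7%, against 14.7%), with medians of 0.03 and 0.01. Insrr, the insulin receptor-related receptor, fell from 5.40 ± 1.33 to 3.16 ± 0.864 CPM and from 5.62 ± 0.543 to 2.73 ± 0.510 CPM (-0.62 ± 0.17 and -0.83 ± 0.13, limma adjusted p = 0.0240 and 0.00190). The acute Insrr call was lost in 5 of 23 alternatives, among them runs of neighbouring animal numbers as a block (limma adjusted p = 0.0821). Pik3r2, a regulatory subunit of phosphoinositide 3-kinase, fell at both times (-0.54 ± 0.09 and -0.59 ± 0.06, limma adjusted p = 0.00205 and 4.98e-05). The receptor that IGF2 signals through, Igf1r, rose at the prolonged time from 32.4 ± 6.89 to 42.1 ± 4.03 CPM (0.39 ± 0.12, limma adjusted p = 0.0450), a call lost in 8 of 17 alternatives. Without prolonged control 3, DKO 1, DKO 2, DKO 4 or DKO 5 the prolonged count of this list was 2. Without acute control 2, 3 or 4, or without acute DKO 3 and 4 together, the acute count of this list was 1.

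Of 22 listed factors that keep or erase imprints, 19 were tested at each time. At the acute time 0 rose and 7 fell (36.8%, against 15.0% of all genes), with a median of -0.19 against -0.07. Uhrf1 and Dnmt1, which copy DNA methylation to the new strand at replication, fell by 0.70 ± 0.09 and 0.57 ± 0.09 (limma adjusted p = 0.000391 and 0.000935), and Ctcf, which binds the unmethylated control region of H19 and Igf2, changed by -0.27 ± 0.06 (limma adjusted p = 0.0126). Ezh2, which writes the mark that KDM6A and KDM6B remove, changed by -0.36 ± 0.07, Trim28 by -0.31 ± 0.10, Tet3 by -0.26 ± 0.08 and Mbd3 by -0.24 ± 0.07. With TMM-scaled CPM 4 factors were called, likewise without acute control 1, control 3 or DKO 3. The calls of Trim28, Tet3 and Mbd3 were lost in 15, 13 and 12 of 23 alternatives.

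At the prolonged time Uhrf1 (-0.54 ± 0.14), Dnmt1 (-0.35 ± 0.10) and Ctcf (-0.18 ± 0.05) were again lower, while Tet1, which oxidises methylated cytosine, rose from 2.69 ± 0.399 to 4.35 ± 0.657 CPM (0.53 ± 0.13) and Ehmt2 rose (0.18 ± 0.06), with limma adjusted p from 0.0204 to 0.0464. Without prolonged control 3 none of the 5 was called by limma, 2 were called without control 1, DKO 3, DKO 4 or DKO 5, and 3 without DKO 1. Over all genes, 1051 were called without control 3, against 1955 with it. The crypt gene Olfm4 was lower in DKO libraries at both times, with medians of 1241 and 714 CPM in acute and 1345 and 730 CPM in prolonged libraries (limma adjusted p = 0.00862 and 0.000137). The stem cell marker Lgr5 had medians of 23.2 and 16.6 CPM in acute and 21.6 and 19.5 CPM in prolonged libraries (limma adjusted p = 0.0546 and 0.658). The part of a change in crypt cells in these lists was not tested.

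The genes whose deviations from the group means were most like those of a member were ranked over the 20 libraries, as a description. The values of a library share its depth and cell makeup. For Igf2r these were Ephx1 (Pearson r = 0.95), Hepacam2 (0.95) and Ptgr1 (0.94), among 10339 genes, with r of 0.79, 0.87 and 0.79 over the 18 libraries without acute DKO 3 and 4. Peg3 was most like Lrrcc1 (0.86), Top3a (0.85) and Trip10 (0.83), with r of 0.85, 0.82 and 0.81 without them. Igf2 was most like Prkce (0.75), Pak6 (0.68) and Tmem64 (0.67), with r of 0.75, 0.54 and 0.56. Between the 4 members tested at both times, Igf2r and Peg3 were the closest pair (0.56), and the other 5 pairs lay between -0.30 and 0.09.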

How the data were processed

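Libraries of poly(A) RNA were made with an NEB kit (labels' protocols). Build mm9 and, with no role for any, DESeq2, STAR, featureCounts 1.6.2, bedtools 2.27.1, SAMtools 1.9 and FastQC 0.11.5 are listed in the submitters' processing notes. For either time the authors deposited a table with CPM per library, scaled to equal totals, and, per the file headers, their DESeq2 columns: a mean normalised signal, a log2 fold change and its error, and p-values with adjusted p-values. Every CPM was a whole multiple of 1 read within 0.01 reads (100% of values; weaker evidence for prolonged control 3, whose step lies near a power of 10), so reads were recovered for depth (9914738 to 26586045 reads in genes per library) and for edgeR and DESeq2 as alternatives. Intervals cover counting error only.

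CPM were tested in R 4.3.3 by the trend method of limma 3.58.1 on log2(CPM + 1), pseudocount 1, each time alone without covariates, with Benjamini-Hochberg adjustment over all tested genes; the difference between times used 1 model of 4 group means. Members below the filter were tested with a two-sided exact permutation test of the mean log2(CPM + 1). Alternatives were pseudocounts 0.25 and 5, no filter or CPM 1, TMM scaling, edgeR 4.0.16 with TMM or relative log expression factors, DESeq2 1.42.0, a replicate block, and leaving out each library or acute DKO 3 and 4; fits without a filter for every member, and a block of runs of neighbouring animal numbers (gaps of at most 10) in the acute labels, were chosen after seeing the data. The fits were tested on simulated data. Promoter sequences were in RefSeq's table for 7 of 10 members, and exon lengths came from GENCODE M21. Named genes were all members, listed genes called at both times, up to 4 more per list and time by size, the genes most like a called member, and neighbours such as Nap1l4, Ascl2, Airn, Kcnq1 and Cdkn1c and the crypt genes Olfm4 and Lgr5, named after their values were seen. The members and lists were chosen with earlier results of these data known. Same-numbered libraries did not deviate together (r from -0.20 to 0.20 acute, -0.24 to -0.16 prolonged), so replicate numbers were not taken as pairs. Library pairs within a group differed by 6.14 to 139 times the sampling variance, so all 20 counted as separate samples. In the acute table, 22 gene names look like dates and were left out between times.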

Additional observations from a re-analysis of the deposited data

Results flagged for a closer look

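In 27 groups of 5 or 7 libraries, each of 1 gene, checked for a library far from the others, 5 such values were found. Acute DKO 4 held more than 1 of them. The chance rate of about 1 in 20 is for normally distributed values. It may not hold for genes with a few reads, so the number found is not set against it. H19 was highest in acute DKO 4 (3.78 CPM, 81 reads), where the next library had 0.326 CPM, and among acute controls in control 3 (0.389 CPM, 6 reads). Igf2 was highest in acute DKO 4 (6.39 CPM, 137 reads; next 4.02 CPM), as was Plagl1 (0.326 CPM, 7 reads; next 0.122 CPM). Grb10 was highest in acute DKO 3 (6.82 CPM, 159 reads; next 2.47 CPM). DKO 3 and DKO 4 are the libraries that stood apart on the first principal component.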

How the results depend on the processing

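Of 1081 alternatives for 54 values of genes, 830 kept direction and side of the threshold, 221 kept direction but lost the call, 2 gained one and 28 reversed. Igf2r kept its call at both times under all alternatives run except the replicate block (limma adjusted p = 0.0732 and 0.0698). The 54 values include Phlda2 at both times, and the counts of prolonged members below include it wherever it was tested. Only its controls carried it past the filter at the prolonged time, so nothing is read from those alternatives.

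With the replicate number as a block, 947 acute and 528 prolonged genes were called by limma, and 1 acute member (Igf2) and 0 prolonged members; the numbers share no animal, and no library was closest to its own number, so this is not read as a weaker effect. With runs of neighbouring animal numbers as a block, an alternative chosen after seeing the data, 1419 acute genes and 1 acute member (Igf2r) were called, and Grb10 was at -0.043. At a filter of CPM 1, 1 prolonged member was called, since Phlda2 was then not tested. Without acute DKO 3 and 4, 1 acute member was called. Leaving out 1 library gave 1239 (without control 3) to 2186 acute and 1051 (without control 3) to 1721 prolonged genes, 1 to 3 acute and 2 to 3 prolonged members, and 0 to 1 genes for the difference between times. That difference gave 4 genes with pseudocount 5, 5 without the filter and 8 by DESeq2. TMM-scaled CPM moved the acute calls from 394 higher and 1641 lower to 701 and 1120; edgeR (667 and 1081) and DESeq2 (1084 and 1248) changed the test as well as the scaling.

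The small differences between times changed sign. For Igf2 it was -0.021 with pseudocount 5, -0.039 with TMM-scaled CPM, -0.19 and -0.21 with edgeR under both scalings, -0.20 with DESeq2, -0.034 with the block and -0.20 to 0.33 without single libraries. For Igf2r it was -0.046 with TMM-scaled CPM, -0.048 and -0.057 with edgeR, -0.058 with DESeq2, -0.066 without acute DKO 3 and 4, and -0.027 to 0.071 without single libraries. For Grb10 it was 0.035 without both and -0.36 to 0.026 without single libraries. Acute differences also changed sign for H19 (-0.083 without both, -0.11 to 0.26 without single libraries), Sgce (-0.016 without both, -0.0030 to 0.11) and Peg10 (-0.036 to 0.0078). The cause was not tested. Depth limits all members except Igf2r, since at most 159 reads of any other fell in a library.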
